A study of Sus scrofa with 18 samples.

Results

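The genes described here are 10 pig genes of the major histocompatibility complex (MHC) class II pathway: the swine leukocyte antigen (SLA) genes SLA-DRA, SLA-DRB1, SLA-DQA1, SLA-DQB1, SLA-DMA, SLA-DMB, SLA-DOA and SLA-DOB, the invariant chain gene CD74, and the transactivator gene CIITA. They were picked by gene name, with earlier results of these data known. All 10 were found among the 30686 rows of the count table. All 10 also passed the filter on low counts, which left 13592 genes for testing. Each member had 1 row, but near-identical copies of class II genes may share reads, and how the authors' counting treated such reads is not given in the sources used here.

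MHC class II molecules carry peptides from ingested material to the cell surface, where CD4+ T cells read them. SLA-DR and SLA-DQ are the surface molecules, each an alpha chain paired with a beta chain. In the endosome SLA-DM exchanges the leftover fragment of the invariant chain for other peptides, and SLA-DO restrains SLA-DM. CIITA does not bind DNA itself. It docks on a complex of RFX, NF-Y and CREB factors at class II promoters, and its own transcription is known to respond to interferon-gamma. Most of these roles were worked out in human and mouse.

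Messenger RNA was sequenced from alveolar macrophages, phagocytes that live on the airway side of the lung, of healthy Danish Landrace-Yorkshire pigs, kept in culture and treated for 24 h. The 6 treatments were Bacillus subtilis with poly I:C, Enterococcus faecium with poly I:C, poly I:C alone, Bacillus subtilis alone, Enterococcus faecium alone, and no treatment (control), with 3 libraries each, from pigs numbered 1 to 3 in the labels. Poly I:C, a double-stranded RNA made in the laboratory, serves as a stand-in for a viral infection; both bacteria are the probiotics of the study's title. No genotype, bacterial strain, dose or animal age is given in the sources used here, and the pigs are few, so a mean over 3 libraries carries wide error.

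Library totals ran from 16346750 to 27274279 counts, and the 10 genes together took between 0.596% and 1.74% of them. The libraries did not fall as the pig numbers say. Grouped by how they deviated from their treatment means over the 1000 most variable genes, members and chromosome 7 left out, the 18 libraries formed 3 sets, here A, B and C, each with 1 library of every treatment. In the B. subtilis with poly I:C, poly I:C and control treatments, libraries 1, 2 and 3 belonged to sets A, B and C in that order. In the B. subtilis and the E. faecium with poly I:C treatments they belonged to B, C and A, and in the E. faecium treatment to C, B and A. Deviations of libraries that shared a set correlated between 0.413 and 0.797 over the 45 pairs. Those of the 28 pairs that shared a pig number but no set lay between -0.525 and -0.137. Pairs that shared neither lay between -0.611 and -0.0392. The sets were made from such deviations, which are centred within each treatment, so part of this contrast follows from how they were made. Here the number of a library is the digit of its column in the count table, taken as the pig number. Because the numbers and the sets disagree, results are given from a model with no pairing, with differences within sets beside them. The sets were made from these same libraries, so p-values with library set as a block may be too small. How often genes at large kept 1 direction in all sets is not given here. Whether the libraries come from separately treated cultures is not stated, so the p-values measure the spread between these libraries.

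The cells carried the markers of macrophages: the 14 macrophage marker genes summed to between 8120 and 34300 CPM (counts scaled to a common library total by the TMM method) in the 18 libraries, with MRC1 at 202 CPM or more and FABP4 at no more than 5.86 CPM. Markers of other cells that carry class II were low for B cells, with a sum of 7 markers between 10.8 and 32.4 CPM. CD79A was the highest of them, at 6.64 to 18.3 CPM, and MS4A1 was at 0.874 CPM or less. The macrophage sum held APOE at 4240 to 26000 CPM, and MARCO ran from 6.62 to 189 CPM. The 7 epithelial markers summed to between 29.0 and 391 CPM. Nearly all of that was EPCAM, at 27.5 to 389 CPM, and each of the others was at 3.50 CPM or less. The dendritic cell list and the T and NK cell list are described beside the poly I:C result.

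The level of these genes followed the presence of poly I:C. In each of the 10 genes, the 3 treatments with poly I:C had higher mean CPM than the 3 treatments without it. In 3 of the 10, SLA-DRA, SLA-DRB1 and SLA-DQA1, the lowest of the 9 libraries with poly I:C exceeded the highest of the 9 libraries without it, a pattern that 6.78% of all genes tested had. The other 7 overlapped, as for CD74, which spanned 2870 to 12800 CPM with poly I:C and 1410 to 3500 CPM without it.

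**Figure D1:**
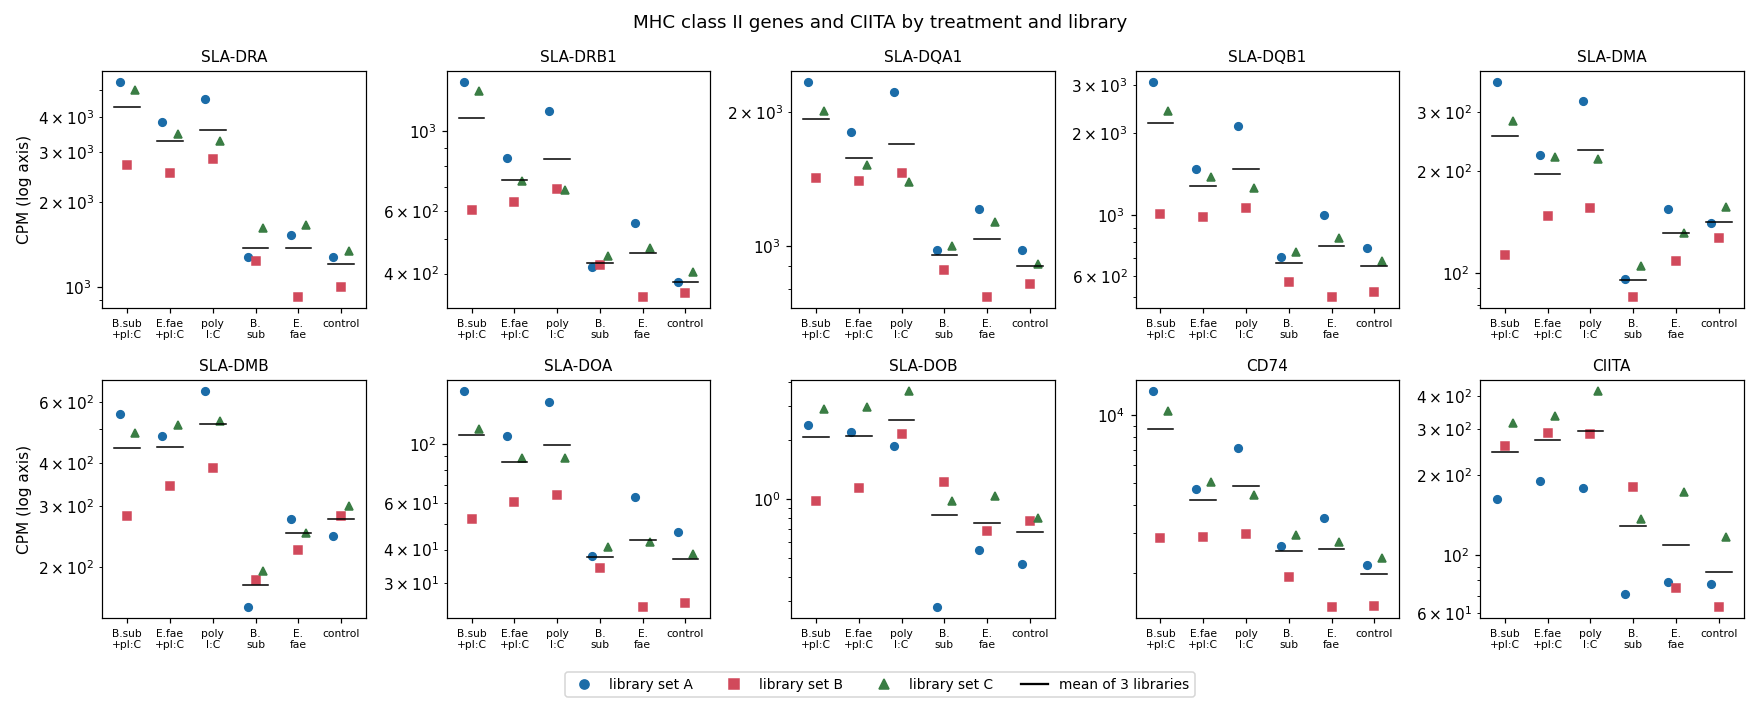
Normalised level of each gene (CPM, log axis) in the 18 libraries by treatment, from left to right B. subtilis with poly I:C, E. faecium with poly I:C, poly I:C, B. subtilis, E. faecium and control. Each point is 1 library, its shape and colour give the library set, and black bars are means of 3 libraries; the 3 treatments on the left sit higher in every panel, and the square of set B is the lowest point of all 6 treatments for CD74.

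The first comparison asks what double-stranded RNA alone did to the class II pathway. After 24 h of poly I:C, 8 of the 10 genes were higher than in control macrophages by edgeR's quasi-likelihood test at a Benjamini-Hochberg adjusted p under 0.05, and none was lower. Among all 13592 genes tested, 12.9% rose. The genes that rose coded for both surface molecules, SLA-DR and SLA-DQ, for SLA-DMB and both chains of SLA-DO, and for CIITA. The invariant chain CD74 and SLA-DMA did not pass. The median log2 fold change of the 10 genes was 1.24, beside -0.01 for all genes tested.

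SLA-DRA, the alpha chain of SLA-DR, lies on chromosome 7 from 24825037 to 24830650 of Sscrofa11.1. It measured 4660, 2840 and 3300 CPM in the poly I:C libraries 1, 2 and 3, against 1270, 997 and 1340 CPM in the control libraries. Every poly I:C library exceeded every control library, and library 1 was the highest. The log2 fold change was 1.58 (SE 0.32, adjusted p = 0.00221, edgeR), which is 2.99-fold, with 1.88, 1.51 and 1.30 in sets A, B and C.

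SLA-DRB1, the beta chain of SLA-DR (chromosome 7, 24901386 to 24914016), had 1140, 691 and 686 CPM with poly I:C, against 379, 353 and 405 CPM in control. The groups did not overlap, and library 1 again stood above the others of its treatment. Its log2 fold change of 1.15 (SE 0.30, edgeR adjusted p = 0.0112) was below that of its partner chain.

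The alpha chain SLA-DQA1 (chromosome 7, 24953472 to 24959313) reached 2220, 1460 and 1390 CPM with poly I:C, against 977, 821 and 908 CPM in control, a log2 fold change of 0.90 (SE 0.25, edgeR adjusted p = 0.0175). Its beta chain SLA-DQB1 (24969034 to 24977238) reached 2130, 1060 and 1260 CPM, against 759, 524 and 679 CPM in control, a log2 fold change of 1.18 (SE 0.38, edgeR adjusted p = 0.0362). Neither chain overlapped between the groups, and in both the poly I:C library 1 was far above the other two of its treatment.

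Of the peptide exchange factor, SLA-DMB (25119278 to 25125089) had 645, 387 and 528 CPM with poly I:C, against 246, 281 and 301 CPM in control. It rose by a log2 fold change of 0.91 (SE 0.26, edgeR adjusted p = 0.0183). Its partner SLA-DMA (25133494 to 25137928) had 323, 156 and 217 CPM with poly I:C, against 140, 127 and 157 CPM in control, and was the 1 member whose libraries overlapped. The difference of 0.71 on the log2 scale had a 95% confidence interval from -0.02 to 1.45 and did not pass (edgeR adjusted p = 0.157). The annotated span of BRD2 covers both SLA-DM genes, and strand use in the counting is not given, so reads of BRD2 cannot be told apart from theirs where exons overlap. BRD2 had a log2 fold change of 0.50 with poly I:C that did not pass (SE 0.26, edgeR adjusted p = 0.184).

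Both chains of SLA-DO rose. SLA-DOA (25178866 to 25182665) had 144, 64.3 and 88.2 CPM with poly I:C, against 46.6, 25.1 and 38.5 CPM in control, and its log2 fold change was 1.43 (SE 0.42, edgeR adjusted p = 0.0224). SLA-DOB (25030435 to 25038196) was scarce, with 1.88, 2.16 and 3.57 CPM with poly I:C, against 0.464, 0.772 and 0.802 CPM in control. These are between 5 and 73 counts over the 18 libraries, so its log2 fold change of 1.90 (SE 0.55, edgeR adjusted p = 0.0216) is the least precise of the 10.

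CD74, the invariant chain that occupies the class II groove until the endosome, lies away from the MHC on chromosome 2 (151402210 to 151409924). It measured 7130, 2970 and 4420 CPM with poly I:C, against 2170, 1430 and 2320 CPM in control. The groups did not overlap, and the spread within the poly I:C group was wide. The difference of 1.29 on the log2 scale (95% confidence interval 0.25 to 2.34) missed the threshold (edgeR adjusted p = 0.0722). With library set as a block it was 1.23 with an edgeR adjusted p of 0.00207. That p may be too small, because the sets were made from these same libraries.

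CIITA, on chromosome 3 (32171706 to 32230775), had 179, 288 and 417 CPM with poly I:C, against 77.7, 63.3 and 117 CPM in control. Here the order of the poly I:C libraries was the other way round: library 1, highest for the DR, DQ, DM and CD74 genes and SLA-DOA, was lowest for their transactivator. The log2 fold change was 1.77 (SE 0.44, edgeR adjusted p = 0.00829), or 3.42-fold, with 1.20, 2.19 and 1.83 in sets A, B and C.

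Between poly I:C and control, 9 of the 10 genes had no overlap, as did 19.4% of all genes in this direction. Within sets, poly I:C was the higher library in 30 of 30 pairs of member and set. The same count over all genes is not given here. With library set as a block all 10 genes passed, beside 20.9% of all genes that rose in that fit. This block, made from the same libraries, moved the calls among all genes from 3055 to 5668. The count of 8 rested in part on single libraries: it was 3 without poly I:C library 1, 5 without control library 1, 5 without control library 2 and 4 without control library 3. Over the 6 fits that left out 1 library, 8.62 to 11.1% of all genes rose. SLA-DRA and CIITA passed in all 6 fits that left out 1 library.

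**Figure D2:**
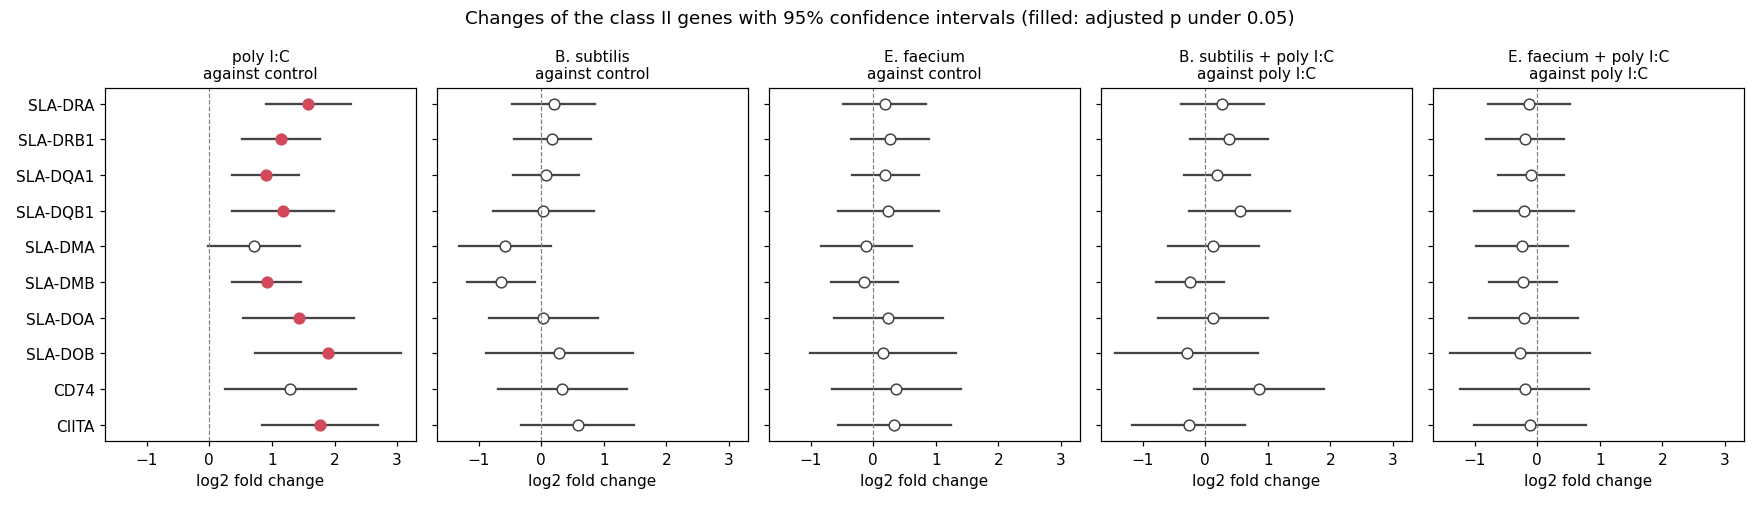
Log2 fold change of each gene (points) with its 95% confidence interval (bars) in 5 comparisons, from edgeR; filled red points have an adjusted p under 0.05. In the poly I:C panel 8 points are filled, and in the other 4 panels none is.

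The machinery around the promoter moved in part. Of 7 genes of the complex that CIITA docks on, 3 rose with poly I:C and none fell, with a median log2 fold change of 0.32. RFX5, the DNA-contacting subunit of RFX, had 176, 187 and 280 CPM with poly I:C, against 35.0, 32.4 and 41.4 CPM in control. Its groups lay far apart, and its log2 fold change was 2.56 (SE 0.34, edgeR adjusted p = 0.000114). NFYB at 0.77 and CREB1 at 0.60 also rose. RFXAP, another RFX subunit, was at -0.68 (edgeR adjusted p = 0.0882).

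Of 13 genes known to act upstream of CIITA, 8 rose with poly I:C and none fell, with a median log2 fold change of 1.06. The tyrosine kinase JAK2 rose by a log2 fold change of 2.42 and the transcription factor IRF1 by 1.47. The repressors of the pathway rose too: SOCS1, which blocks JAK kinases, by 3.71 and PRDM1, a repressor of the CIITA promoter, by 1.48. IRF2 at 1.68, IRF8 at 1.06 and the receptor chain IFNGR2 at 0.70 were also among those that rose. The interferon-gamma gene IFNG itself was at 4.11 CPM or less in all libraries, and its log2 difference of 0.90 did not pass (SE 0.51, edgeR adjusted p = 0.230).

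The endosomal side did not pass the test. None of 12 proteases, protease inhibitors and related endosomal genes passed in the poly I:C comparison, and their median log2 fold change was 0.14. CTSS, the cathepsin that trims the invariant chain, had 3640, 2380 and 2890 CPM with poly I:C, against 2420, 1980 and 2570 CPM in control, and its groups overlapped. None of 4 genes of class II surface turnover passed either; MARCH1, a ubiquitin ligase that removes class II from the surface, stood at 1.00 (SE 0.44, edgeR adjusted p = 0.122). Of 4 partners of CD74 and 2 tested class II receptors of T cells, 0 passed as well. For comparison, 12 of 20 class I pathway genes rose (median 1.02), and 28 of 28 interferon-stimulated genes did (median 3.25).

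Summed levels of the dendritic cell markers and of the T and NK cell markers were also above control in every poly I:C library. The 10 dendritic cell genes in the table summed to between 123 and 548 CPM in the B. subtilis with poly I:C libraries, 105 and 199 CPM with E. faecium and poly I:C, 101 and 171 CPM in poly I:C libraries, 112 and 211 CPM in B. subtilis libraries, 36.3 and 90.8 CPM in E. faecium libraries, and 34.5 and 51.9 CPM in control. Of the 8 tested, BATF3 alone rose with poly I:C (log2 fold change 2.75, edgeR adjusted p = 0.00138), and it also rose with B. subtilis (4.08). In that comparison no class II gene passed. The sum of the list in the B. subtilis libraries overlapped that of the poly I:C libraries and not that of control. Of the defining markers, CLEC10A was at 0 in 18 libraries and CLEC9A at 0 in 14, whereas XCR1 had 39 to 639 counts, ZBTB46 30 to 190 and FLT3 8 to 58 over the 18 libraries. CCR7 reached 181 CPM and FSCN1 205 CPM.

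The 7 T and NK cell genes summed to between 63.4 and 85.7 CPM in the B. subtilis with poly I:C libraries, 48.4 and 65.7 CPM with E. faecium and poly I:C, 57.2 and 74.0 CPM in poly I:C libraries, 45.0 and 62.3 CPM in B. subtilis libraries, 45.5 and 53.6 CPM in E. faecium libraries, and 44.1 and 55.8 CPM in control. Of these 7, CD2 alone rose with poly I:C (log2 fold change 1.57, edgeR adjusted p = 0.0154), and the median of the list was -0.19. The part of either list in the class II result was not tested, and in whole-culture RNA, more cells of a type and more RNA per cell cannot be told apart.

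The second comparison concerns the bacteria alone. In macrophages given B. subtilis the DR, DQ and DO transcripts had mean levels within a factor of 1.22 of control, while both SLA-DM genes were lower in every set without passing the test. By edgeR 0 of 10 members passed, 1 had an unadjusted p under 0.05, and DESeq2 also called 0. Of all 13592 genes tested, 4.44% were called by edgeR, with 2323 at an unadjusted p under 0.05. DESeq2 called 7.76% of the genes it tested. SLA-DRA, for example, had 1230, 1620 and 1280 CPM with B. subtilis, against 1270, 997 and 1340 CPM in control, a log2 difference of 0.20 (95% confidence interval -0.46 to 0.86). The libraries overlapped, and the interval leaves out a change of the size seen with poly I:C.

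SLA-DMB had 183, 195 and 153 CPM with B. subtilis, against 246, 281 and 301 CPM in control. SLA-DMA had 84.5, 105 and 95.5 CPM with B. subtilis, against 140, 127 and 157 CPM in control. In both genes every B. subtilis library lay below every control library. SLA-DRB1 did not overlap either, in the other direction, with 422, 448 and 417 CPM against 379, 353 and 405 CPM. Within sets, 4 members were higher in all 3 and 2 were lower in all 3. The share of all genes without overlap in this comparison is not given here. The log2 differences were -0.64 for SLA-DMB (95% confidence interval -1.18 to -0.10, edgeR adjusted p = 0.195) and -0.57 for SLA-DMA (-1.31 to 0.16, adjusted p = 0.453). Within sets A, B and C they were -0.69, -0.62 and -0.62 for SLA-DMB and -0.55, -0.59 and -0.58 for SLA-DMA. With library set as a block, SLA-DMB passed at an edgeR adjusted p of 0.040 and SLA-DMA did not (0.0998). That fit called 18.4% of all genes, 9.31% as lower, so 1 of 10 members is near the share of all genes.

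CIITA had 180, 136 and 71.0 CPM with B. subtilis, against 77.7, 63.3 and 117 CPM in control, and the groups overlapped. The log2 difference was 0.58, with a 95% confidence interval from -0.32 to 1.48. It was 1.51 in set B, 0.21 in set C and -0.13 in set A. Upstream of CIITA, 3 of the 13 genes rose with B. subtilis: IRF8 by a log2 fold change of 1.28, SOCS1 by 1.93 and PRDM1 by 1.54. CD44, a partner of CD74 at the surface, rose by 0.97.

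With E. faecium alone no member moved past the spread of the libraries. By edgeR 0 of 10 passed and 0 had an unadjusted p under 0.05, and DESeq2 called 0; of all genes, 0% were called by edgeR, with 278 at an unadjusted p under 0.05 and 31 called by DESeq2. SLA-DRA had 1660, 916 and 1530 CPM with E. faecium, against 1270, 997 and 1340 CPM in control, a log2 difference of 0.18 (95% confidence interval -0.48 to 0.85). CD74 had 2740, 1410 and 3500 CPM with E. faecium, against 2170, 1430 and 2320 CPM in control, a difference of 0.37 (-0.66 to 1.40). All 10 members overlapped between the groups. The differences ran from -0.14 for SLA-DMB (-0.68 to 0.40) to 0.37 for CD74.

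Between the bacteria, 0 of 10 members passed in B. subtilis against E. faecium macrophages by edgeR, with 0 at an unadjusted p under 0.05 and 0 by DESeq2. Of all genes, 0.177% were called by edgeR, with 1168 at an unadjusted p under 0.05, and 270 by DESeq2. SLA-DMB was the member farthest from no difference, at -0.50 (95% confidence interval -1.04 to 0.04), and SLA-DMA was at -0.47 (-1.20 to 0.27). Both SLA-DM genes were lower with B. subtilis in 3 of 3 sets.

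The third comparison adds a bacterium to poly I:C. B. subtilis with poly I:C was above poly I:C alone in sets A and C but not in set B for CD74, SLA-DQB1 and SLA-DRB1. The same held for SLA-DRA, SLA-DQA1, SLA-DMA and SLA-DOA, and no member passed. By edgeR 0 of 10 members passed, 0 had an unadjusted p under 0.05, and DESeq2 called 0. Of all genes, 0% were called, with 1423 at an unadjusted p under 0.05 and 2 by DESeq2. That 0 rested on library 2 of B. subtilis with poly I:C: without it, 2087 genes or 15.1% were called, 914 higher and 1173 lower, and still 0 of 10 members.

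CD74 had 12800, 2870 and 10500 CPM with B. subtilis and poly I:C, against 7130, 2970 and 4420 CPM with poly I:C. Libraries 1 and 3 of the double treatment were the highest of the series, and library 2 lay below all 3 poly I:C libraries. Libraries 1 and 3 also had the lowest TMM factors of the series, 0.664 and 0.719, which raises their CPM most. Their raw CD74 counts, 139494 and 138365, were the highest as well. The log2 difference was 0.85 (95% confidence interval -0.18 to 1.89, edgeR adjusted p = 0.550), with 0.85, -0.05 and 1.25 in sets A, B and C.

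SLA-DQB1 had 3090, 1010 and 2410 CPM with B. subtilis and poly I:C, against 2130, 1060 and 1260 CPM with poly I:C. Its library 2 was again the lowest, and the difference was 0.55 (-0.26 to 1.35). SLA-DRB1 had 1380, 602 and 1300 CPM against 1140, 691 and 686 CPM with poly I:C, a difference of 0.38 (-0.24 to 1.00). CIITA went the other way, with 163, 259 and 315 CPM in the double treatment, against 179, 288 and 417 CPM with poly I:C. It was lower in 3 of 3 sets, by a log2 difference of -0.26 (-1.16 to 0.64).

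E. faecium added to poly I:C gave 0 of 10 members by edgeR, with 0 at an unadjusted p under 0.05 and 0 by DESeq2. Of all genes, 0% were called, with 38 at an unadjusted p under 0.05 and 0 by DESeq2. The 10 log2 differences were all below 0, from -0.10 for SLA-DQA1 (95% confidence interval -0.63 to 0.43) to -0.27 for SLA-DOB (-1.40 to 0.85). The sets did not share that sign: 10 of 30 pairs of member and set were higher with E. faecium. Only 1 member was lower in every set. CD74, for example, was at -0.60, -0.04 and 0.20 in sets A, B and C. SLA-DRA had 2540, 3480 and 3850 CPM with E. faecium and poly I:C, against 4660, 2840 and 3300 CPM with poly I:C, and the libraries overlapped. CIITA, with 290, 337 and 191 CPM against 179, 288 and 417 CPM with poly I:C, overlapped as well.

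Set against each other, the double treatments differed most in CD74, with 12800, 2870 and 10500 CPM for B. subtilis with poly I:C, against 2890, 5060 and 4720 CPM for E. faecium with poly I:C. The log2 difference was 1.05 (95% confidence interval 0.01 to 2.09) and missed the threshold (edgeR adjusted p = 0.299). By edgeR 0 of 10 members passed, 1 had an unadjusted p under 0.05 and DESeq2 called 0; of all genes, 0% were called by edgeR, with 2245 at an unadjusted p under 0.05 and 548 by DESeq2. Leaving out library 2 of B. subtilis with poly I:C, a set B library, let 3 members pass by edgeR: CD74 (log2 difference 1.47, adjusted p = 0.0217), SLA-DRB1 (0.87, adjusted p = 0.0218) and SLA-DQB1 (1.10, adjusted p = 0.0285). Without that library 3316 genes were called, 24% of those tested and 10.9% as higher, so the gain of calls was not limited to the class II genes.

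Against control, the double treatments called sets of members of different size. With B. subtilis and poly I:C, 8 of 10 members were higher than control by edgeR, beside 19% of all genes. CD74 rose by a log2 fold change of 2.15 (SE 0.51, adjusted p = 0.00424, edgeR), which is 4.43-fold, SLA-DRA by 1.86 and SLA-DQB1 by 1.73. SLA-DMB at 0.68 (edgeR adjusted p = 0.0504) and SLA-DMA at 0.85 (edgeR adjusted p = 0.0684) were the 2 that did not pass.

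With E. faecium and poly I:C, 6 of 10 were higher than control by edgeR, beside 13.3% of all genes. They were CIITA at 1.66, SLA-DOB at 1.62, SLA-DRA at 1.45, SLA-DOA at 1.22, SLA-DRB1 at 0.95 and SLA-DQA1 at 0.80 on the log2 scale. CD74 was at 1.10 (95% confidence interval 0.05 to 2.14, edgeR adjusted p = 0.123) and SLA-DMA at 0.47 (-0.26 to 1.21). SLA-DQB1 at 0.97 (edgeR adjusted p = 0.0781) and SLA-DMB at 0.69 (edgeR adjusted p = 0.0629) did not pass either. Neither overlapped control. The count of 6 fell to 1 without control library 2. It fell to 2 without control library 1 or 3, or without E. faecium with poly I:C library 2 or 3. In these fits 9.13 to 10.8% of all genes rose. With pig number as a replicate block, SLA-DOB no longer passed in either comparison (edgeR adjusted p = 0.0514 for the B. subtilis double treatment and 0.0620 for that with E. faecium). Both double treatments share the control libraries with the poly I:C comparison.

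With poly I:C on top of B. subtilis, 8 of 10 members rose against B. subtilis alone by edgeR, beside 11.1% of all genes. The SLA-DM genes were among them here: SLA-DMB had 554, 281 and 489 CPM with B. subtilis and poly I:C, against 183, 195 and 153 CPM with B. subtilis, a log2 fold change of 1.32 (SE 0.26, edgeR adjusted p = 0.00344), and SLA-DMA rose by 1.42 (adjusted p = 0.0124). CIITA had 163, 259 and 315 CPM, against 180, 136 and 71.0 CPM with B. subtilis. The libraries overlapped, and its difference of 0.93 did not pass (95% confidence interval 0.02 to 1.84, edgeR adjusted p = 0.139). SLA-DOB at 1.31 was the other member that did not pass. The count was 4 without B. subtilis with poly I:C library 1 and 5 without B. subtilis library 1. In these fits 6.06% and 6.46% of all genes rose, in that order. It was 0 when only these 2 treatments were fitted, a fit in which 2.11% of all genes rose.

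Poly I:C added to E. faecium raised 3 of 10 members by edgeR, beside 9.49% of all genes: SLA-DRA by 1.27, CIITA by 1.33 and SLA-DMB by 0.83 on the log2 scale. SLA-DRA had 2540, 3480 and 3850 CPM with E. faecium and poly I:C, against 1660, 916 and 1530 CPM with E. faecium, with no overlap. CD74 was at 0.73 (95% confidence interval -0.31 to 1.76). All 10 members were higher with poly I:C in 3 of 3 sets, and with library set as a block 9 passed, beside 17.7% of all genes that rose in that fit. The count fell to 0 without E. faecium with poly I:C library 3 or E. faecium library 2, and to 1 without E. faecium with poly I:C library 2 or E. faecium library 3. In these fits 5.53 to 6.27% of all genes rose. With pig number as a replicate block CIITA did not pass (edgeR adjusted p = 0.0670).

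Whether a bacterium changed the response to poly I:C was tested as an interaction. For B. subtilis, 0 of 10 members passed by edgeR, with 0 at an unadjusted p under 0.05 and 0 by DESeq2. Of all genes, 0.0368% were called, and 514 genes without library 2 of B. subtilis with poly I:C. With all libraries, 1216 genes had an unadjusted p under 0.05 and 113 were called by DESeq2. The estimates ran from -0.84 for CIITA (95% confidence interval -2.12 to 0.43) to 0.71 for SLA-DMA (-0.33 to 1.74). For E. faecium, 0 of 10 passed by edgeR, with 0 at an unadjusted p under 0.05 and 0 by DESeq2; 0% of all genes were called, with 95 at an unadjusted p under 0.05 and 0 by DESeq2. Its estimates were all below 0, from -0.08 for SLA-DMB (-0.85 to 0.68) to -0.56 for CD74 (-2.02 to 0.89). For CD74 both intervals are wide enough to hold a change of the size of the poly I:C difference itself.

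The proportions between the class II genes also differed between treatments. Ratios of counts within a library do not depend on library scaling. They were chosen after the values had been seen, so they are described with the smallest p that 3 against 3 libraries allow. The summed counts of SLA-DMA and SLA-DMB, as a percentage of those of SLA-DRA and SLA-DRB1, were 13.7, 11.9 and 12.2% in the B. subtilis double treatment, and 15.4, 17.5 and 15.0% with E. faecium and poly I:C. They were 16.7, 15.4 and 18.7% with poly I:C alone, and 16.1, 14.5 and 14.6% with B. subtilis alone. They were 17.9, 26.3 and 20.7% in the E. faecium libraries, and 23.4, 30.3 and 26.2% in control.

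Every library with poly I:C or B. subtilis had a lower SLA-DM to SLA-DR ratio than every control library, while the E. faecium libraries overlapped control. The mean was 16.9 ± 1.65% with poly I:C, against 26.6 ± 3.45% in control (SD, n = 3 each, exact 2-sided permutation p = 0.1, the smallest possible; 0.306 after Benjamini-Hochberg adjustment over 55 such tests). With B. subtilis it was 15.1 ± 0.912%, against the same control value, at the same exact permutation p. In the poly I:C libraries the mean levels of all 4 genes were above control, those of SLA-DR by more. In the B. subtilis libraries the mean levels were 1380 CPM for SLA-DRA and 177 CPM for SLA-DMB, against 1200 and 276 CPM in control.

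The SLA-DQ to SLA-DR ratio was lower in the treatments with poly I:C. It was 74.7 ± 5.45% with B. subtilis and poly I:C, 71.3 ± 3.25% with E. faecium and poly I:C, 70.9 ± 4.31% in poly I:C libraries, 90.2 ± 8.09% in B. subtilis libraries, 99.2 ± 7.19% in E. faecium libraries and 98.6 ± 7.37% in control (SD, n = 3 each). All 3 poly I:C libraries were below all 3 control libraries (exact permutation p = 0.1, adjusted 0.306), and the B. subtilis and E. faecium libraries overlapped control. The SLA-DO to SLA-DM ratio was 13.2 ± 1.63% with poly I:C and 14.2 ± 1.14% with B. subtilis, against 9.03 ± 2.95% in control (SD, n = 3 each), with no overlap in either case. Nearly all SLA-DO counts were those of SLA-DOA, as with 2150 against 28 of SLA-DOB in poly I:C library 1. With B. subtilis the mean of SLA-DOA was 37.6 CPM, against 36.7 CPM in control, while both SLA-DM genes were lower. CD74 and CIITA as a share of SLA-DR overlapped between every pair of treatments compared.

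**Figure D3:**
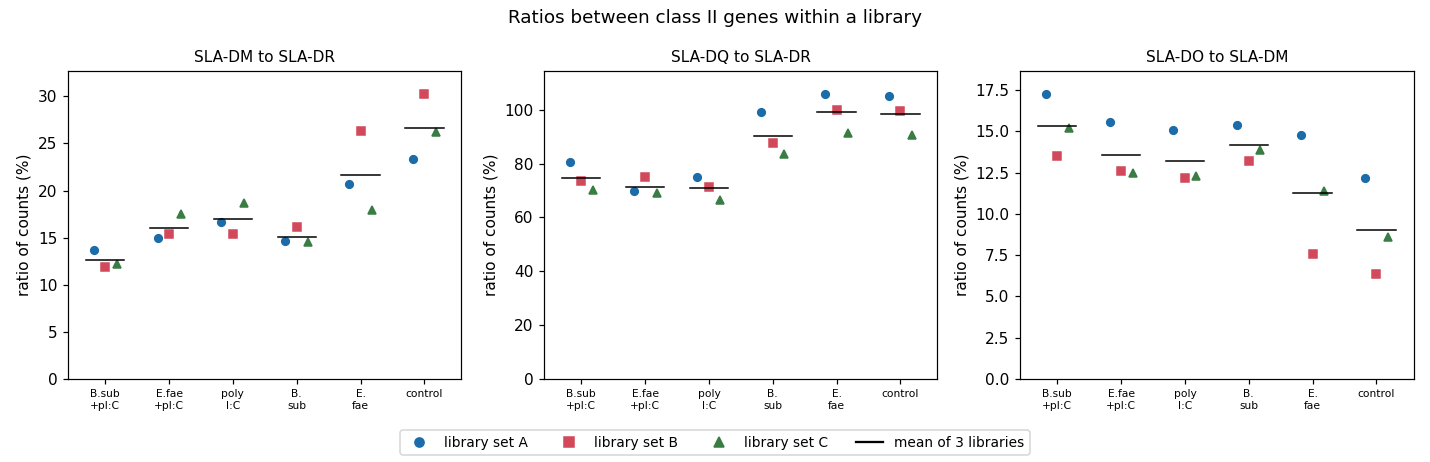
Ratios of summed counts within each library, in percent, for SLA-DM to SLA-DR, SLA-DQ to SLA-DR and SLA-DO to SLA-DM, with treatments ordered as in the plot of levels. Points are libraries by set and bars are means of 3; the SLA-DM to SLA-DR ratio lies between 23.4 and 30.3% in control and between 11.9 and 18.7% in all libraries with poly I:C.

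Within a treatment, the levels of the members differed by library set. The set B library was the lowest of its treatment in 6 of 6 treatments for SLA-DRA, SLA-DQB1, SLA-DMA, SLA-DOA and CD74, and in 5 for SLA-DQA1. For CIITA the set C library was the highest in 5 of 6 treatments and the set A library the lowest in 4. Set A, in turn, was the highest for SLA-DQA1, SLA-DQB1 and SLA-DOA in 5 of 6. In the E. faecium and control treatments, the set B library was the lowest for CIITA and for both SLA-DQ genes. SLA-DOB followed the pattern of CIITA, with set C highest in 5 of 6 treatments.

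Treatment accounted for 85.8% of the variance of SLA-DRA over the 18 libraries and library set for 10.5%. For CD74 the shares were 59.4% and 31.0%, and for CIITA 69.9% and 20.8%. The median gene tested had 48.0% and 23.9%. Pig number accounted for 4.04% in SLA-DRA, 12.9% in CD74 and 0.0921% in CIITA.

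**Figure D4:**
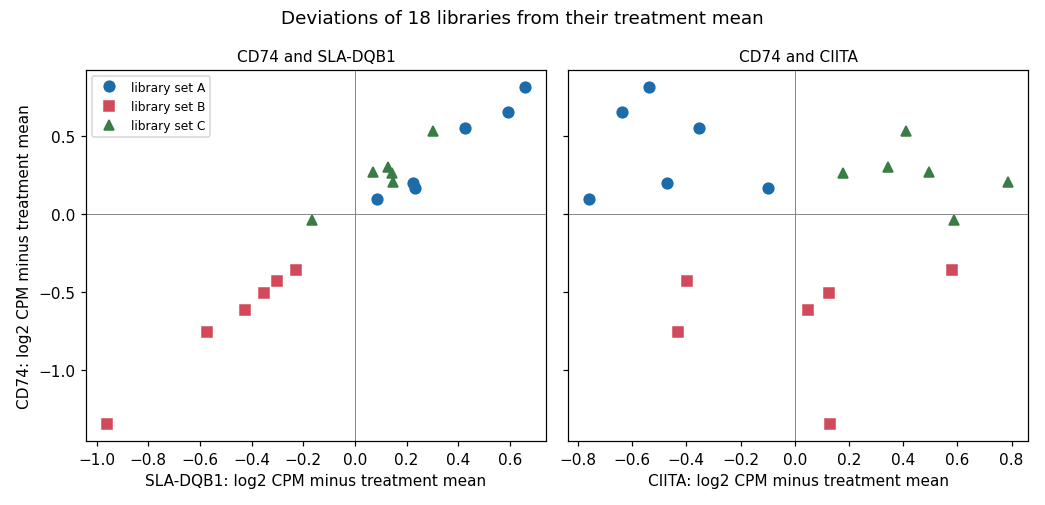
Deviation of each of the 18 libraries from its treatment mean (log2 CPM) in CD74 on the vertical axis, against SLA-DQB1 (left panel) and CIITA (right panel) on the horizontal axis. All 6 squares of set B lie below 0 for CD74; SLA-DQB1 runs along with CD74, whereas for CIITA all 6 circles of set A lie left of 0 and all 6 triangles of set C right of it.

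A further row carries the old names of SLA-DRB genes. LOC106504372, a short protein-coding entry on chromosome 7 (25000257 to 25000539) that RefSeq lists under SLA-DRB synonyms, had 8 to 135 counts. Its counts were 12, 123 and 17 in the B. subtilis double treatment, 135, 49 and 91 with E. faecium and poly I:C, and 24, 127 and 40 with poly I:C. They were 82, 16 and 9 in the B. subtilis libraries, 17, 119 and 8 in the E. faecium libraries, and 19, 97 and 20 in control. The set B library was the highest in every treatment, the reverse of SLA-DRA, and the log2 difference between poly I:C and control did not pass (1.10, edgeR adjusted p = 0.483). Reads of such copies and of SLA-DRB1 may be shared.

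Between the start of SLA-DRA and the end of SLA-DOA, a stretch of 358 kb, RefSeq places 25 genes, 8 of them members. Of the 17 others, 11 were tested and 4 rose with poly I:C. These were the class I peptide transporter genes TAP1 (log2 fold change 1.73) and TAP2 (1.75) and the immunoproteasome genes PSMB8 (1.32) and PSMB9 (1.59), which lie between SLA-DOB and SLA-DMB. The SLA-DM genes beyond them had the smaller changes of 0.91 and 0.71, and SLA-DOA at the far end had 1.43.

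**Figure D5:**
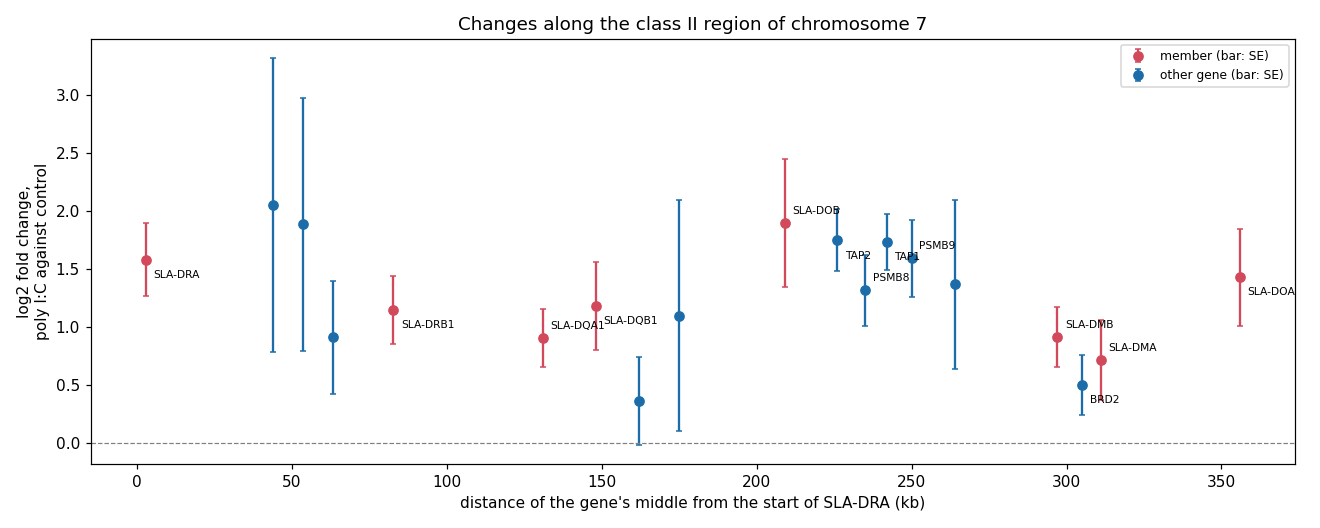
Log2 fold change of poly I:C against control (points, bars are SE) for the genes tested in the class II region, by the distance of each gene's middle from the start of SLA-DRA in kb; members are red, other genes blue. The tallest members are SLA-DOB at 1.90 and SLA-DRA at 1.58, and the SLA-DM pair near 300 kb is among the lower ones.

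Over the 18 libraries, the genes with a pattern most like CIITA, by Pearson's r of log2 CPM, were ABTB2 (0.967), NEMP2 (0.961), RBBP6 (0.959), NLRC5 (0.958) and PIK3CD (0.958). NLRC5 is the transactivator of class I genes. Those most like CD74 were DHRSX (0.982), NUCB1 (0.981), the class I genes SLA-6 (0.977) and SLA-8 (0.975), and PHKG2 (0.973). These values describe 18 libraries that share 6 treatments and 3 sets, and no class II gene was among the 5 most like CIITA.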

How the data were processed

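The deposited table holds 1 count per gene for each of 18 libraries. Its values are whole numbers with different column totals, so they were taken as raw counts of the authors with no normalization. The submitters' processing notes name Sscrofa11.1 and DESeq2. Aligner, counter, annotation and strand setting: not given in the sources used here. Of 30686 rows, 351 had no gene name and took 0.515 to 1.04% of a library's counts. Those rows were not set apart: they entered the filter on low counts, the library sizes and the tests like all others.

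Counts were tested with edgeR 4.0.16 (R 4.3.3): TMM scaling, filterByExpr with a minimum count of 10, 1 quasi-likelihood fit over all 6 treatments with no block, Benjamini-Hochberg adjustment over 13592 genes, and a threshold of 0.05. CPM are scaled by the TMM library sizes. Single ratios were compared with exact permutation tests. Gene positions come from RefSeq on Sscrofa11.1, with 30335 rows matched. No transcript lengths were used, so levels of different genes were not compared.

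Per the labels, same-numbered libraries come from the same pig, which would pair them. In a check of that pairing, correlations of residuals over the 45 same-number pairs had a median of -0.243 and reached 0.739. The 28 of them in different sets had a median of -0.314, beside -0.305 for pairs that shared neither. The 45 pairs within sets had 0.643. The sets were made from these residuals, so low values between sets follow in part from that, and the check cannot settle the pairing. Sets came from Ward clustering of residuals. Alternatives were pig number as a replicate block, set as a block, RLE factors, DESeq2 1.42.0, no filter, only the compared groups, and leaving out each library. Every member is named. Some genes of the other lists are not reported here. The members and gene lists were chosen with earlier results of these data known.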

Additional observations from a re-analysis of the deposited data

How the results depend on the processing

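Of 33 member values past the threshold, none reversed under any alternative run. All 33 kept their call with library set as a block, with RLE factors and with DESeq2; 28 did with no filter on low counts, 22 when only the compared groups were fitted, and 129 of 198 when 1 library was left out. With pig number as a replicate block 30 kept it; the block moved the count of members to 7 for B. subtilis with poly I:C against control, 5 for E. faecium with poly I:C against control and 2 for E. faecium with poly I:C against E. faecium, and changed no other count. With library set as a block, B. subtilis against control had 1 member (SLA-DMB, lower) and E. faecium with poly I:C against E. faecium had 9. The sets were made from these same libraries, so p-values of that fit may be too small. With no filter, E. faecium with poly I:C against E. faecium had 1. Only the compared groups gave 0 members for B. subtilis with poly I:C against B. subtilis. Leaving out 1 library gave 3 to 8 members for poly I:C against control, 6 to 10 for B. subtilis with poly I:C against control, 1 to 7 for E. faecium with poly I:C against control, 4 to 9 for B. subtilis with poly I:C against B. subtilis, 0 to 2 for E. faecium with poly I:C against E. faecium, and 0 to 3 for B. subtilis with poly I:C against E. faecium with poly I:C. In those fits, 8.62 to 11.1% of all genes rose for poly I:C against control. Against control, 14 to 22.1% rose for B. subtilis with poly I:C and 9.13 to 12.1% for E. faecium with poly I:C. With poly I:C added to the bacterium, 5.16 to 17.4% rose for B. subtilis and 5.53 to 8.44% for E. faecium. Between the double treatments 0 to 10.9% rose. For poly I:C against control, 3055 genes passed, and 5668 with library set as a block. Leaving out library 2 of B. subtilis with poly I:C moved the count of all genes to 2087 against poly I:C and 3316 against E. faecium with poly I:C, both 0 with all libraries. Leaving out 1 library gave 156 to 456 genes for B. subtilis against control (604 with all), 1 to 85 for B. subtilis against E. faecium (24 with all) and 0 to 36 for E. faecium against control (0 with all). Scaling by totals alone would have moved the median of all genes by -0.54 on the log2 scale in poly I:C against control and by -0.82 in B. subtilis with poly I:C against control; TMM medians lie within 0.05 of 0 in each comparison. The log2 difference of the SLA-DM to SLA-DR ratio between poly I:C and control was -0.65; by alternatives chosen after seeing the data it was -0.67 for SLA-DMB over SLA-DRA and -0.45 for SLA-DMA over SLA-DRB1. With 3 libraries a treatment, intervals of single genes span more than 1 log2 unit, and SLA-DOB rests on 5 to 73 counts. Intervals cover the spread between these libraries only.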
